A study of Homo sapiens with 2 samples.

Results

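The simple epithelial keratins KRT7, KRT8, KRT18 and KRT19 were described in single-cell RNA libraries of MDAMB468 and CAL51, human cell lines from triple-negative breast cancer. The genes were chosen by name, 4 of 30796 genes in the files, and all 4 were found by their Ensembl identifiers. Both lines are established breast cancer lines, and triple-negative means that the tumour type lacks the oestrogen receptor, the progesterone receptor and amplified HER2. The labels give no treatment, genotype, time or clone for either group. Each line had 1 Drop-seq library, in which a cell is lysed in a droplet with a barcoded bead and each transcript end receives a unique molecular identifier (UMI). No difference between the lines therefore has a replicate check, the line and its library cannot be told apart, and every 95% interval counts sampling of molecules alone (counting error).

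In all, 306 barcodes and 5501900 UMIs came from MDAMB468. The CAL51 library held 1377 barcodes, of which 31 carried a barcode sequence that also occurred in the MDAMB468 library. These 31 barcodes, called shared barcodes, were left out of CAL51, which left 1346 barcodes with 16223444 UMIs. Values of single cells also left out barcodes 1 base away from a much deeper barcode of the same line, which left 242 MDAMB468 barcodes (median 14828.5 UMIs) and 1339 CAL51 barcodes (median 8660 UMIs). The hormone receptor genes were near 0, with 3 and 0 UMIs of ESR1 and 1 and 1 of PGR in MDAMB468 and CAL51. HER2 (ERBB2) had 39 and 262 UMIs. Markers of blood cells summed to 0 and 4 UMIs and those of endothelial cells to 6 and 5 UMIs. The epithelial adhesion gene EPCAM reached 867 and 283 CPM (the gene's UMIs scaled to a fixed library total), while E-cadherin (CDH1) reached 33.1 and 0.43 CPM.

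Keratins are the intermediate filament proteins of epithelial cells. A filament is built from heterodimers of 1 acidic type I chain and 1 basic type II chain, so cells need both kinds, and unpaired keratin protein is known to be degraded. KRT8 (type II) and KRT18 (type I) are the first keratins of the embryo and the basic pair of simple, single-layered epithelia. KRT7 (type II) and KRT19 (type I, with an unusually short tail) are added in ductal and glandular epithelia, among them the luminal cells of the breast.

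The central rod, in which the paired chains wind around each other, ends in a signature stretch of intermediate filament proteins. It is shown for the type I genes, KRT18 and KRT19, as the 60 coding bases up to the end of the rod. They are given 5′ to 3′ on the coding strand, from GENCODE 29 transcripts on GRCh38, with the bases that both genes share in capitals.
KRT18: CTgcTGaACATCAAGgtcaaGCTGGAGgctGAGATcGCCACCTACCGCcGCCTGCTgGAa
KRT19: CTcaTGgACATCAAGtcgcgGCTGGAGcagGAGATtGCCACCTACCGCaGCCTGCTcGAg
KRT18 and KRT19 had the same base at 45 of these 60 positions and over 67.7% of their aligned coding sequence. The type II genes KRT7 and KRT8 matched over 76.7% of theirs, and pairs of unlike type over 64.4% to 67.2%. The reading frame beyond the rod, which codes for the tail, was 216 bases long in KRT7, 261 in KRT8, 135 in KRT18 and only 45 in KRT19, without the stop codon.

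On GRCh38 with GENCODE 29, KRT7 lies on the plus strand of chr12:52232520-52252186 and KRT8 on the minus strand of chr12:52897187-52949954. KRT18 lies beside KRT8, on the plus strand of chr12:52948871-52952901, and is the type I keratin placed among type II genes. KRT19 lies on the minus strand of chr17:41523617-41528308. The KRT8 and KRT18 gene models overlap by 1084 bases at their starts and run on opposite strands, with 3′ ends 55.7 kb apart. The libraries read 3′ ends, and the sources used here do not say if reads were counted by strand. They do not name the build and annotation behind the counts either, so these positions are those of GENCODE 29.

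MDAMB468 expressed all 4 keratins at high level, while CAL51 expressed mainly the KRT8 and KRT18 pair. Levels are sums over the barcodes of a line in CPM. Because a transcript gives a UMI at its end only, they were not divided by transcript length. Among the 4 genes, KRT7 and KRT19 were at least 2-fold higher in MDAMB468, KRT18 was at least 2-fold lower, and KRT8 lay between. Of all 15347 genes with at least 20 UMIs in the 2 lines together, 18.9% were at least 2-fold higher in MDAMB468 and 22.4% at least 2-fold lower, and the median log2 difference was -0.13. Log2 differences are of CPM + 1, MDAMB468 minus CAL51.

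Among the type II keratins, KRT7 reached 953 CPM (927 to 979) in MDAMB468. In CAL51 it had 0 UMIs, against a floor of 3 counts at 0.185 CPM, so its level was at least 5153-fold higher in MDAMB468. All 106 KRT7 UMIs under the CAL51 label sat in the 31 shared barcodes. KRT8 was at 764 CPM (741 to 787) in MDAMB468 and at 919 CPM (904 to 934) in CAL51. It was therefore 1.20-fold higher in CAL51 (1.16 to 1.24), which makes it the member that differed least between the lines. Its log2 difference of -0.27 lay near that of the median gene.

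Among the type I keratins, KRT19 reached 1934 CPM (1897 to 1971) in MDAMB468 and 30.6 CPM (27.9 to 33.4) in CAL51. It was 63.3-fold higher in MDAMB468 (57.8 to 69.4), a log2 difference of 5.94. KRT18 ran the other way, with 555 CPM (535 to 575) in MDAMB468 and 1555 CPM (1535 to 1574) in CAL51. It was 2.80-fold higher in CAL51 (2.70 to 2.91), a log2 difference of -1.49. The type I partner therefore differed in kind between the lines, KRT19 leading in MDAMB468 and KRT18 in CAL51. The leading type II keratin differed as well, KRT7 in MDAMB468 and KRT8 in CAL51.

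**Figure D1:**
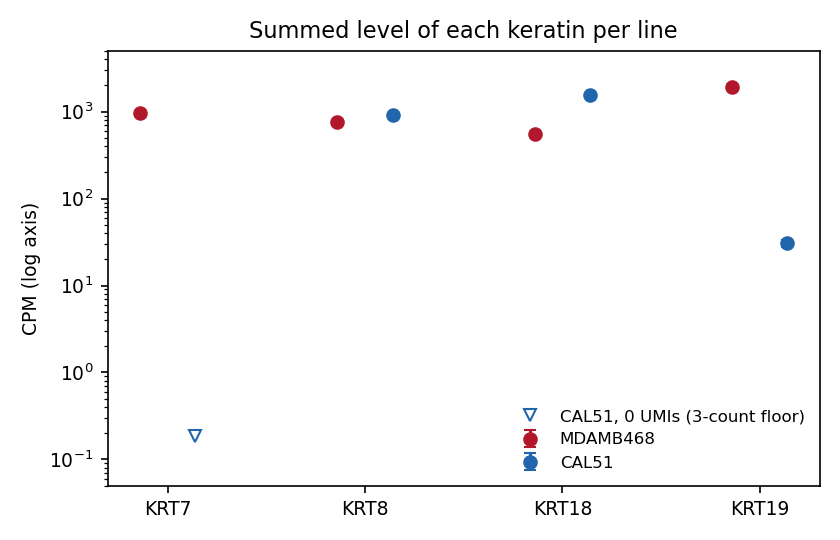
Summed level of each keratin in CPM, on a log axis, for MDAMB468 (red) and CAL51 (blue), with 95% Poisson intervals that are mostly smaller than the points; the open triangle marks the floor of 3 counts for KRT7 in CAL51, which had 0 UMIs. KRT8 is nearly level between the lines, KRT7 and KRT19 are higher in MDAMB468 and KRT18 is higher in CAL51.

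Within MDAMB468 the order was KRT19, KRT7, KRT8 and KRT18, and no neighbouring intervals overlapped. By UMIs they ranked 68, 158, 197 and 260 among the 23850 genes detected in that line. Within CAL51 the order was KRT18, KRT8, KRT19 and KRT7, again with no overlap. KRT18 ranked 76 and KRT8 164 among 27677 detected genes, while KRT19 ranked 5087. CAL51 is thus a line with abundant KRT8 and KRT18 messages and with low E-cadherin, beside 86.97 CPM of N-cadherin (CDH2), which had 0 UMIs in MDAMB468.

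In the shared barcodes KRT18 lay with the library label and the other 3 keratins did not. Under the CAL51 label these 31 barcodes held 783.8 CPM of KRT7 (642 to 948), which other CAL51 barcodes lacked, and 2566 CPM of KRT19 (2303 to 2850). Their 31 partners, the barcodes of the same sequence in the MDAMB468 library, held 887 CPM of KRT7 and 1885 CPM of KRT19. KRT8 was at 673 CPM (542 to 826) in the shared barcodes and at 765 CPM in the partners. KRT18, however, was at 1501 CPM (1302 to 1722) in the shared barcodes and at 517 CPM (487 to 548) in the partners, 2.90-fold higher (2.49 to 3.37) and higher in 29 of 31 barcodes. Among the 320 genes with at least 1000 UMIs in the partners, this fold ranked 4 from the top.

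The KRT18 levels of the shared and of the other CAL51 barcodes, 1501 and 1555 CPM, differed by less than the counting error. Taking both levels from barcodes labelled CAL51, the log2 difference of KRT18 was -0.05, that of KRT8 -0.45 and that of KRT19 6.35. The shared barcodes also held 8 genes nearly absent from MDAMB468, chosen after the data were seen, at 16.6% (GPC3) to 43.6% (GSTP1) of their level in the other CAL51 barcodes. Their sum was at 34.8%, or at 25.7% for the 7 genes without GSTP1, which gave 310 of the 487 UMIs. UMIs of all annotated pseudogenes, of any kind, made up 0.459% of the shared barcodes, 2.41% of the partners and 1.20% of the other CAL51 barcodes. The part of either in the KRT18 level was not tested. With both levels from barcodes labelled CAL51, KRT7 and KRT19 were still at least 2-fold different, and KRT18 was not, at 1.04-fold (0.902 to 1.20).

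**Figure D2:**
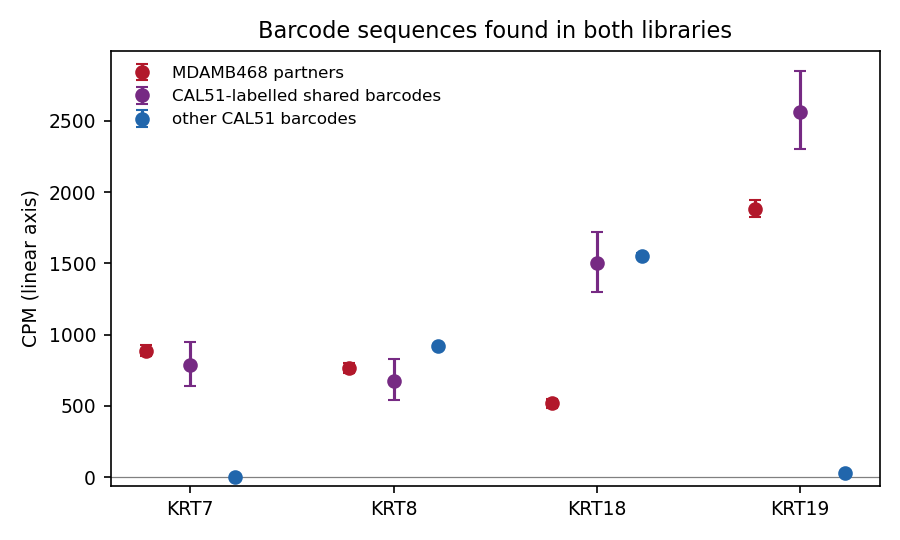
Level of each keratin in CPM, on a linear axis, in the 31 MDAMB468 barcodes whose sequence recurs in the CAL51 library (red), in the 31 CAL51-labelled shared barcodes (purple) and in all other CAL51 barcodes (blue), with 95% Poisson intervals. KRT7, KRT8 and KRT19 of the shared barcodes lie nearer the MDAMB468 partners, whereas KRT18 at 1501 CPM lies with the other CAL51 barcodes at 1555 CPM.

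Summed over the 4 genes, MDAMB468 held more keratin message, 4205 CPM against 2504 CPM. KRT19 made up 46.0% of it in MDAMB468, KRT7 22.7%, KRT8 18.2% and KRT18 13.2%. In CAL51, KRT18 made up 62.1%, KRT8 36.7% and KRT19 1.22%, and KRT7 was at 0 with an upper limit of 0.00908%. Despite these unlike members, the type I share was near in both lines. It was 59.2% (58.5 to 59.8) of 23138 UMIs in MDAMB468 and 63.3% (62.8 to 63.8) of 40623 UMIs in CAL51. With every other keratin on the lists added, the type I share was 56.7% and 64.3%.

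The balance of the KRT8 and KRT18 pair alone was further apart. KRT18 gave 42.1% (40.9 to 43.2) of the UMIs of the pair in MDAMB468 and 62.9% (62.4 to 63.3) in CAL51. In the shared barcodes it gave 69.0% (63.4 to 74.3), and in their partners 40.3%. The share in the shared barcodes thus lay nearer that of the other CAL51 barcodes, though above it. It rests on the same KRT8 and KRT18 UMIs as the levels given before and is no separate observation. The type I share of all 4 genes was 73.6% (70.3 to 76.8) in the shared barcodes and 59.3% in the partners. Over single barcodes with at least 20 keratin UMIs, the type I share had a median of 58.7% (quartiles 53.1 and 63.4) in 200 MDAMB468 barcodes. Its median was 63.2% (57.8 and 68.2) in 556 CAL51 barcodes, so the quartile ranges of the lines overlapped.

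Next the spread between cells was compared after every barcode had been thinned at random to 2500 UMIs, which all barcodes reached. Means, shares and counts at this depth, here and below, come from 1 such thinning unless stated otherwise. In MDAMB468, KRT19 had a mean of 4.69 UMIs per barcode (median 4, highest 14) and was seen in 94.2% of barcodes. KRT7 had a mean of 2.48 (median 2, highest 16) and was seen in 89.3%. KRT8 had a mean of 1.69 (median 1, highest 8) and was seen in 76.9%, and KRT18 had a mean of 1.30 (median 1, highest 6) and was seen in 67.4%. Without thinning these shares were 98.8%, 99.2%, 93.8% and 95.04% in the same order, so each of the 4 messages was seen in nearly every MDAMB468 barcode. The 67.4% of KRT18 lay below all values of 20 further random thinnings, which ran from 69.0% to 76.9%. Their mean share was 71.9%, with a mean of 1.38 KRT18 UMIs per barcode.

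In CAL51, KRT18 had a mean of 3.68 UMIs (median 3) and was seen in 85.4% of barcodes (83.4 to 87.2), and its highest barcode held 41 of 2500 UMIs. KRT8 had a mean of 2.12 (median 1, highest 27) and was seen in 71.8% (69.3 to 74.2). Without thinning, KRT18 was seen in 95.967% of barcodes and KRT8 in 90.2%. KRT19 had a mean of 0.0889 and was seen in 5.75% (4.56 to 7.14), or in 12.8% without thinning. Over 20 further random thinnings the KRT19 mean was lower, 0.0736 UMIs, and its share ran from 4.18% to 5.97%, with a mean of 5.32%. KRT7 was seen in none of 1339 barcodes, which allows a share of up to 0.275% of barcodes with a UMI at this depth and sets no limit on cells that express the gene at a lower level.

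**Figure D3:**
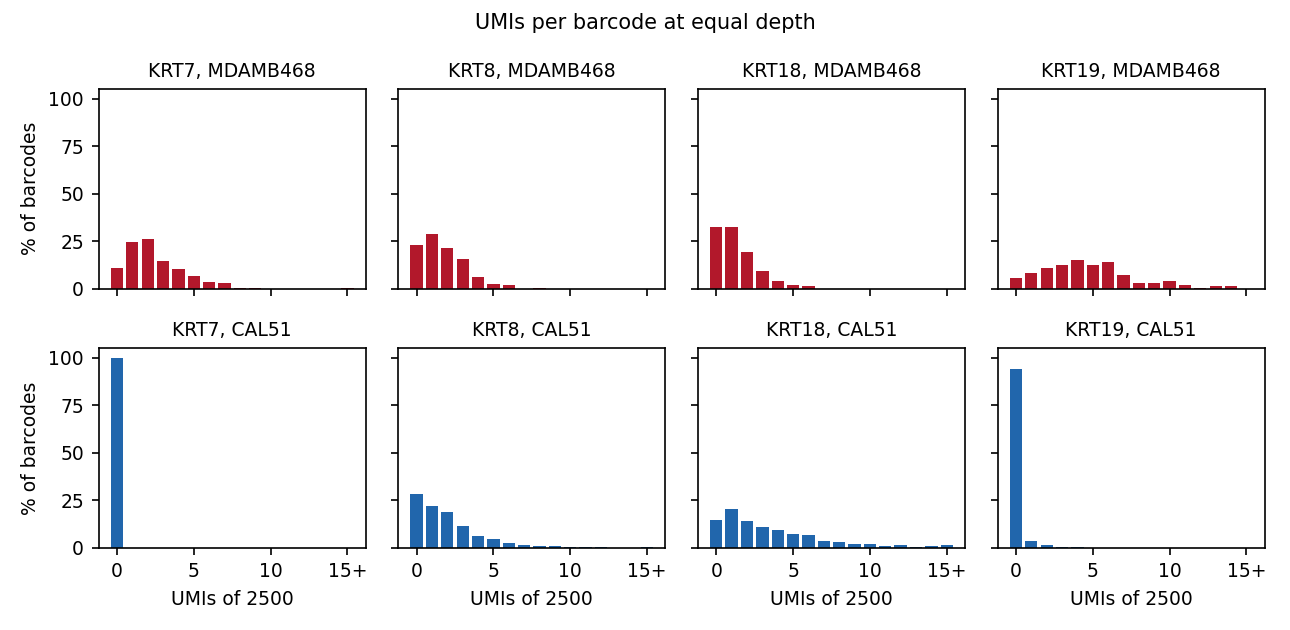
Percent of barcodes (vertical axis) by UMIs of each keratin out of 2500 (horizontal axis, 15 and over pooled), in 242 MDAMB468 barcodes (red) and 1339 CAL51 barcodes (blue). KRT8 and KRT18 have long right tails in CAL51, and KRT7 and most of KRT19 sit at 0 there.

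The KRT8 and KRT18 pair varied more between CAL51 cells than between MDAMB468 cells. The Fano factor, the variance over the mean, is near 1 for pure counting noise and had a median of 1.05 over 3809 genes in MDAMB468 and of 1.07 over 4254 genes in CAL51. In CAL51 it was 4.19 for KRT18, rank 8, and 2.94 for KRT8, rank 19. In MDAMB468 it was 1.34 for KRT18, 1.28 for KRT8, 1.62 for KRT7 and 1.94 for KRT19. Over 20 further random thinnings the MDAMB468 means were 1.33, 1.36, 1.28 and 1.78 in that order, and the KRT7 values, 1.05 to 1.42, all lay below the 1.62 of the first thinning, so KRT7, KRT8 and KRT18 cannot be put in order. Over the same thinnings the CAL51 values ran from 4.02 to 4.53 for KRT18 and from 2.53 to 3.12 for KRT8. The highest single value in MDAMB468 was 1.58 for KRT18 and 1.54 for KRT8.

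After the counting noise had been taken off, the coefficient of variation between CAL51 cells was 94.0% for KRT18 and 93.5% for KRT8. It was 48.8% and 44.7% in MDAMB468, where KRT19 had 41.1% and KRT7 33.7%. The lines also differed in the number of barcodes and in depth before thinning, whose part in the spread was not tested.

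In CAL51 the messages of KRT8 and KRT18 went together from cell to cell. The Pearson correlation of their log counts at 2500 UMIs was 0.588 over 1339 barcodes. Both were seen in 876 barcodes, neither in 111, KRT8 alone in 85 and KRT18 alone in 267. The mean of KRT8 was 0.643 UMIs in the 196 barcodes with no KRT18, 1.14 in the 463 barcodes with 1 to 2, 2.24 in the 370 with 3 to 5, 3.41 in the 206 with 6 to 9 and 6.35 in the 104 with 10 or more. Each step of KRT18 thus came with a higher mean of KRT8. Over the 20 further thinnings r ran from 0.561 to 0.605, and with counting noise removed it was 0.965. These cells share 1 library, and a correlation between them is a description of that library.

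In MDAMB468 the correlation of KRT8 with KRT18 was 0.15 over 242 barcodes, with a mean of 0.14 and a range of 0.064 to 0.195 over the further thinnings. With counting noise removed it was 0.643 over the further thinnings and 0.413 in the first thinning. The mean of KRT8 was 1.52 UMIs in the 79 barcodes with no KRT18, 1.75 in the 124 with 1 to 2, 1.75 in the 36 with 3 to 5 and 3.33 in the 3 with 6 to 9. The counts of both genes were lower in MDAMB468, and the part of this in the correlation was not tested. In CAL51 thinned to 1000 UMIs r was 0.424. Over all MDAMB468 barcodes the closest pair of keratins was KRT8 with KRT19, the abundant type I partner of that line, at 0.22. Its mean was 0.286 and its range 0.21 to 0.42 over the further thinnings. The other pairs, KRT7 with each of the rest and KRT18 with KRT19, lay between 0.01 and 0.12. Over the further thinnings KRT18 with KRT19 had a mean of 0.136 (0.051 to 0.210), all above the 0.01 of the first thinning and near the 0.14 of KRT8 with KRT18. KRT7 with KRT19 had a mean of 0.128, KRT7 with KRT8 of 0.062 and KRT7 with KRT18 of 0.046. No order can be read among these pairs at these counts. In CAL51, KRT19 had an r of 0.15 with KRT8 and of 0.12 with KRT18, both above all 20 further thinnings, whose means were 0.102 and 0.078.

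**Figure D4:**
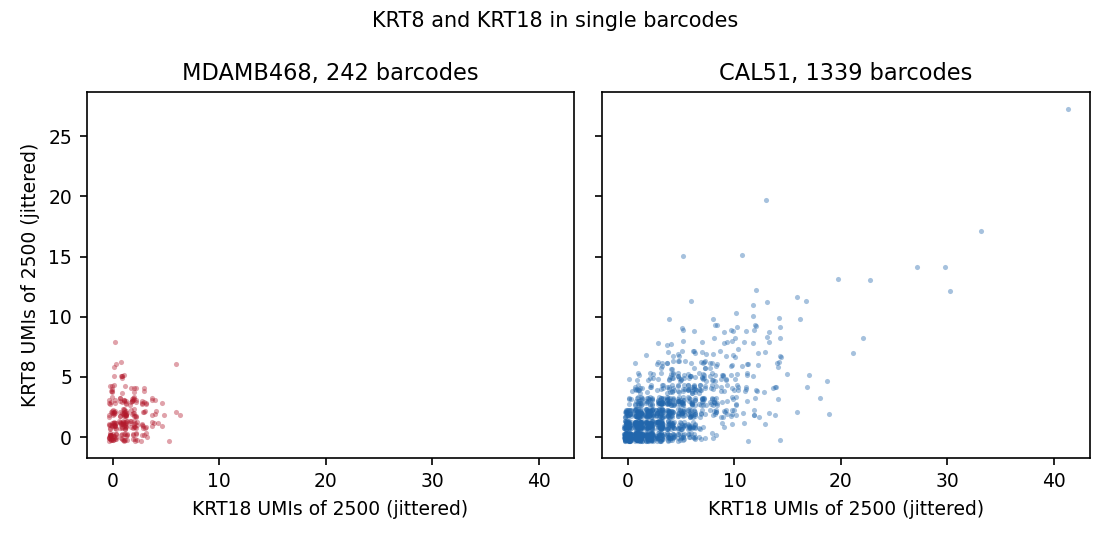
KRT8 UMIs against KRT18 UMIs of single barcodes thinned to 2500 UMIs, slightly jittered, in 242 MDAMB468 barcodes (left) and 1339 CAL51 barcodes (right). The CAL51 cloud runs along a diagonal up to 41 KRT18 and 27 KRT8 UMIs, and the MDAMB468 cloud stays below 10 of either.

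The genes most like each keratin across cells were ranked by the same correlation, among 2357 genes in CAL51 and 2018 in MDAMB468. In CAL51 the first for KRT8 was KRT18, followed at a distance by the cyclin gene CCND1 (0.22), the actin-binding gene TAGLN, CD24 and APLP2. The first for KRT18 was KRT8, followed by CCND1 (0.25), the carbonic anhydrase gene CA2 (0.19), LRRFIP1 and TAGLN. For KRT19 they were S100A10 (0.18), KRT8, ANXA4, TMSB10 and ANXA2, and S100A10 and ANXA2 encode the chains of 1 membrane-binding complex. Over the further thinnings the mean was 0.18 for CCND1 with KRT8, 0.21 for CCND1 with KRT18 and 0.15 for S100A10 with KRT19. No other gene came near the likeness of KRT8 and KRT18 to each other.

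In MDAMB468 the genes most like KRT19 were ACTB (0.37), EEF1A1 (0.31), CFL1 (0.30), SNHG29 (0.28) and GAPDH (0.27), all abundant genes. Those most like KRT8 were EEF1A1 (0.31), ACTB (0.27), PFN1, KRT19 and PRDX3, of which PFN1 and PRDX3 had means of only 0.098 and 0.079 over the 20 further thinnings. For KRT7 they were the type I keratin KRT23 (0.32), FXYD5, RPL7AP66, IK and LY6D, but KRT23 had a mean of only 0.11 over those thinnings and the rest at most 0.05. For KRT18 they were SSR2, PRDX6, LAMTOR1, FAM162A and UBAC1, with means of 0.03 to 0.08. The KRT7 and KRT18 lists of MDAMB468, and PFN1 and PRDX3 for KRT8, are therefore mostly those of 1 random thinning.

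KRT19 in CAL51 was unevenly spread. Of 1339 barcodes, 172 held 494 UMIs before thinning, and 79 of these held a single UMI. The 10 barcodes with at least 10 KRT19 UMIs held 134, or 27.1%, and the highest held 30. KRT7 was at 0 UMIs in the same 1339 barcodes, from which the shared barcodes had been left out. The source of the KRT19 UMIs was not tested. At 2500 UMIs the 77 barcodes with KRT19 had a mean of 3.86 UMIs of KRT8 and 5.92 of KRT18. The 1262 barcodes without it had means of 2.02 and 3.54. The median depth before thinning was 8663 and 8652.5 UMIs in these sets. The sets were formed from the counts of the first thinning, so the difference is given without a test.

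To see where the high cells lay, the cells of each line were clustered with every keratin gene left out. In CAL51, cluster 3, 236 barcodes led by CD24, PDLIM1, CA2, S100A10, EPCAM and CYB5A, had the highest mean of KRT18, at 5.47 UMIs (5.18 to 5.78), and of KRT8, at 2.99 (2.77 to 3.22). Clusters 0, 1, 2 and 4, led in turn by histone genes, by NTS and GPC3, by AGR2 and AP1S2 and by the mitotic genes CENPE and AURKA, had KRT18 means of 3.06 to 3.39. Their KRT8 means were 1.82 to 2.16. Barcodes with no KRT18 made up 5.93% of cluster 3 and 12.3% to 19.5% of the other 4. Cluster 5, 9 barcodes led by IFIT genes, had 4.44 UMIs of KRT18 with an interval of 3.18 to 6.05.

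The KRT8 and KRT18 correlation was also computed inside the clusters. It was 0.549, 0.637, 0.495, 0.587 and 0.626 in CAL51 clusters 0 to 4 and 0.117 in the 9 barcodes of cluster 5. In MDAMB468 it was 0.293, 0.074 and 0.083 in clusters 0 to 2 and 0.652 in the 10 barcodes of cluster 3. CAL51 cells called G1, S and G2M from cell cycle genes had an r of 0.663, 0.581 and 0.581. For KRT8 with KRT19 in MDAMB468, r was 0.472, 0.289 and 0.098 in these phases and 0.069, 0.376 and 0.136 in clusters 0 to 2. KRT8 with KRT19 was therefore not closer than KRT8 with KRT18 in every cluster. In MDAMB468 the mean of KRT18 was 1.18 to 1.34 in clusters 0 to 2, with overlapping intervals, and that of KRT8 was 1.44 to 1.91. Cluster 3, 10 barcodes led by MX1 and IFIT genes, had the highest KRT18 mean, 2.0 with an interval of 1.22 to 3.09, and a KRT8 mean of 1.30. KRT19 of MDAMB468 had a mean of 5.75 UMIs (5.24 to 6.30) in cluster 1, led by ATP1B1 and CCN2, and of 3.95 (3.54 to 4.40) in cluster 0, led by TAOK1 and histone genes.

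**Figure D5:**
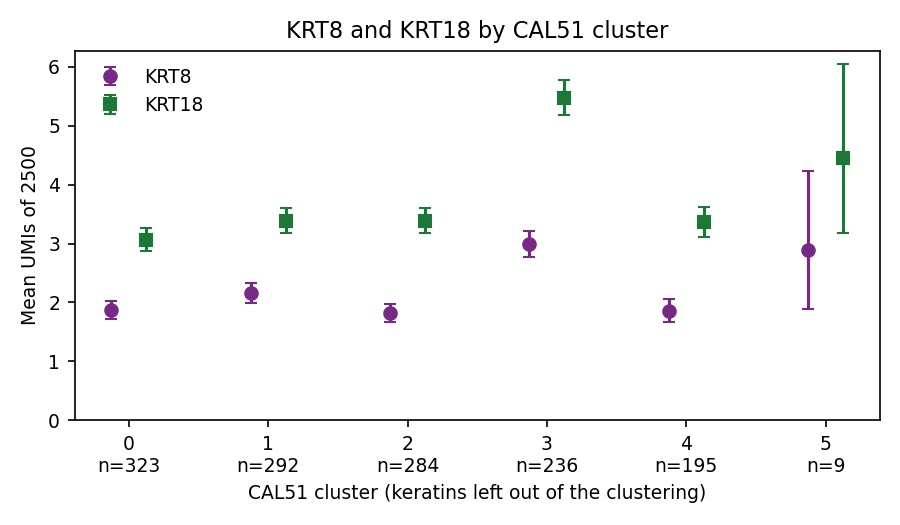
Mean UMIs of KRT8 (purple circles) and KRT18 (green squares) at 2500 UMIs per barcode in the 6 CAL51 clusters, found with all keratin genes left out, with 95% Poisson intervals and the number of barcodes. Cluster 3 stands above clusters 0, 1, 2 and 4 for both genes, and cluster 5 has 9 barcodes.

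KRT19 was the member that differed most between called cell cycle phases. In MDAMB468 its mean was 6.28 UMIs (5.52 to 7.10) in 40 barcodes called G1, 4.54 (4.05 to 5.08) in 68 called S and 4.29 (3.95 to 4.66) in 134 called G2M. In CAL51 it was 0.239 (0.159 to 0.346) in 117 barcodes called G1, 0.0686 (0.0459 to 0.0985) in 423 called S and 0.0776 (0.0595 to 0.0995) in 799 called G2M. In each line the G1 interval lay above the other intervals. These intervals leave out the spread between cells, where the Fano factor of KRT19 was 1.94 in MDAMB468 and 1.97 in CAL51. They also leave out the spread between thinnings. Over all CAL51 barcodes the KRT19 mean was 0.0889 in the thinning used here and 0.0736 over 20 further ones. KRT18 of CAL51 had 4.18, 3.66 and 3.62 UMIs and KRT8 2.45, 2.34 and 1.96 in G1, S and G2M. Median depth before thinning was lower in G1, 12160 UMIs in MDAMB468 and 7229 in CAL51, than in G2M, 17018 and 9422, and the part of depth or of free RNA in these calls was not tested.

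Most other keratins with enough UMIs were higher in MDAMB468, as KRT7 and KRT19 were. Of 10 further type II keratins in the files, 5 had at least 20 UMIs, and all 5 were at least 2-fold higher in MDAMB468. Their median log2 difference was 5.64 (5.98 with lines at 0 set to the floor). All 5 reached 20 UMIs through MDAMB468 alone, so their direction was largely fixed by this filter. Over all genes, 18.9% were at least 2-fold higher in MDAMB468 and 22.4% lower. The basal keratin KRT5 had 2224 UMIs (404.2 CPM) in MDAMB468 and 0 in CAL51, at least 2186-fold higher. The hair keratin KRT81 had 362 UMIs and 1. The smallest difference of the 5 was that of KRT80, with 28 UMIs and 4. Of 15 further type I keratins, 6 had at least 20 UMIs, of which 5 were at least 2-fold higher in MDAMB468 and none lower, with a median of 5.15 (5.68 with the floor). These 5 also reached 20 UMIs through MDAMB468 alone. KRT23 had 913 UMIs (166 CPM) and 0, KRT15 376 and 1, and KRT17, a keratin of basal and stressed epithelium, 338 and 16. KRT10, of differentiating epidermis, was between, at 91.4 and 70.5 CPM. None of these keratins reached the level of KRT18 or KRT8 in either line.

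Other intermediate filaments showed no common direction. Of 8 with at least 20 UMIs, 1 was at least 2-fold higher in MDAMB468, 3 were lower and 4 lay between, with a median log2 difference of -0.50. The shares over all genes were 18.9% higher and 22.4% lower, and 8 genes are too few to set these counts apart from them. The neurofilament gene NEFH had 46 UMIs and 0, at the top. The lens filament gene BFSP1 was at the bottom, with 7.82 CPM in MDAMB468 and 26.9 in CAL51, and the nuclear lamin LMNB2 was at 45.8 and 107 CPM. Vimentin, the filament protein of mesenchymal cells, was nearly level, at 316 and 332 CPM. Both lines therefore held vimentin beside KRT8 and KRT18.

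Of 15 genes of desmosomes and keratin linkers with at least 20 UMIs, 9 were at least 2-fold higher in MDAMB468, 1 lower and 5 between, with a median log2 difference of 1.29. Over all genes the shares were 18.9% higher and 22.4% lower. Desmoplakin (DSP), which ties keratin filaments to the desmosome, was at 824 and 254 CPM, and PERP at 350.1 and 106 CPM. The desmosomal cadherins DSC2 and DSC3 were at 133 and 7.15 CPM and at 61.8 and 0.925 CPM. DSC3 and EVPL reached 20 UMIs through MDAMB468 alone, so their direction was largely fixed by this filter. DST, a linker of filaments to the hemidesmosome, was at 91.97 and 37.1 CPM. Plakophilin 2 (PKP2) was the exception, at 6.18 CPM in MDAMB468 and 119 CPM in CAL51, 19.2-fold higher in CAL51 (13.7 to 27.8).

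Of 19 epithelial transcription and splicing factors with at least 20 UMIs, 12 were at least 2-fold higher in MDAMB468, 1 lower and 6 between, with a median of 1.31. Among all genes, 18.9% were higher and 22.4% lower. TFAP2C had 442 UMIs in MDAMB468 and 0 in CAL51, and the splicing factor ESRP1 had 349 and 0. These genes, with GRHL2, ELF5 and OVOL2, reached 20 UMIs through MDAMB468 alone, so their direction was largely fixed by this filter. The ETS family factors ELF3, EHF and ETS1 were at 197 and 11.2, at 73.97 and 29.2, and at 60.2 and 2.84 CPM. JUN, a subunit of the AP-1 factor, was at 197 and 22.2 CPM. KLF5 was lower in MDAMB468, at 31.1 CPM against 126 in CAL51. The list medians are descriptions, since no test between the lines could be made.

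The genes for KRT8 and KRT18 have many processed pseudogenes, copies of the spliced message elsewhere in the genome, which can take reads from their parent. Of 88 such genes for the 4 keratins in the files, 13 had at least 20 UMIs, of which 2 were at least 2-fold higher in MDAMB468 and 2 lower, with a median log2 difference of -0.25. These counts lie near the shares over all genes, 18.9% higher and 22.4% lower. KRT19P1 was the highest, with 73 UMIs and 0, and KRT8P36 the lowest, with 1 and 34. Pseudogenes of KRT18 held 191 UMIs in MDAMB468, 5.89% of parent and pseudogenes together, and 888 in CAL51, or 3.40%. Those of KRT8 held 1.73% and 1.003%, and those of KRT19 0.718% and 0 UMIs. KRT18P10 and KRT18P11 match the KRT18 transcript at 95.6% and 95.9% of aligned bases. The sources used here do not say how reads were divided between such copies or if they were dropped. The levels of KRT8, KRT18 and KRT19 are therefore uncertain by an amount that these shares do not limit.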

How the data were processed

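The authors deposited 1 matrix of UMI counts, all whole numbers, for 30796 genes and 1683 barcodes, and no normalisation is visible in them. STARsolo is named in the submitters' processing notes, without a version. The build, the annotation, the barcode selection and the handling of strand and multiply mapped reads are not stated in any label or header used here, so they are not given. Barcode names, per the file headers, start with the cell line and gave each barcode its line.

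Counts were summed per line as CPM, with CAL51 left without 31 barcode sequences of 12 bases also found in MDAMB468. Single-cell values further left out 64 MDAMB468 and 7 CAL51 barcodes lying 1 base from another of their line that held 5 times their UMIs or more. No doublet caller was run, so doublets may remain. Log2 differences used a pseudocount of 1 CPM. A call was a CPM fold of at least 2 among genes with at least 20 UMIs, and a floor of 3 counts stood for 0. With 1 library per line no test was made. Intervals are exact Poisson for counts, exact Clopper-Pearson for shares and exact conditional for folds, and cover counting error only. Barcodes were thinned to 2500 UMIs. Clusters came from scanpy 1.11.5 (2000 variable genes, 30 components, 15 neighbours, Leiden resolution 0.5). Noise-removed values took off a variance equal to the mean, as a mean over 20 thinnings. The noise-removed correlation was tested on simulated counts set near those of CAL51 only. The lower counts of MDAMB468, the coefficient of variation and the mean over thinnings were not simulated.

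The keratins, lists and tests were chosen with earlier results of these data known. Named genes are the 4 keratins, the highest and lowest listed gene with at least 20 UMIs, any listed gene at least 2-fold different and over 50 CPM, and the 5 genes most like each keratin. Genes printed outside this rule, cell type markers included, were picked after their values were seen. Alternatives covered barcode sets, scaling, pseudocount, thinning depth, correlation measure, clustering and count minimum. Those added after the data were seen are the further thinnings, noise removal, values within phases and clusters, and both levels from CAL51-labelled barcodes. TMM factors came from edgeR 4.0.16 in R 4.3.3, and all else from Python 3.11.15 with scipy 1.17.1, numpy 2.4.6, pandas 2.3.3 and Biopython 1.88.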

Additional observations from a re-analysis of the deposited data

Results flagged for a closer look

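The 31 barcodes under the CAL51 label whose sequence recurs in the MDAMB468 library were left out of the comparison between the lines, and all 4 keratins gave a signal there. They held 106 UMIs of KRT7, in 29 of 31 barcodes, where the other 1346 CAL51 barcodes held 0. They held 347 UMIs of KRT19, in 31 of 31 barcodes, 91 of KRT8, in 27, and 203 of KRT18, in 30. No UMI of the keratins' processed pseudogenes was counted there, where 9.18 would be counted in 135240 UMIs at the 67.9 CPM of the partners.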

How the results depend on the processing

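Over 56 results and 315 alternatives, 201 alternatives stayed within counting error of the reported value (or within 1.5 times a reported count). A turn of direction was scored only for the called log2 differences, those of KRT7, KRT18 and KRT19, and 0 of their alternatives turned. With all barcodes included, the log2 difference was 6.99 for KRT7 and 5.20 for KRT19. As a mean of single-barcode values it was 9.94 for KRT7, -0.18 for KRT8 and -1.24 for KRT18, and the type I share of CAL51 was 64.4%. Pseudogene UMIs brought that share to 63.9%. Without mitochondrial and ribosomal protein genes in the total, the differences were 10.26, -0.17 and -1.38 for KRT7, KRT8 and KRT18. TMM factors gave -0.40 and -1.62 and the median of ratios -0.41 and -1.63 for KRT8 and KRT18. These scalings moved the median of all genes by 0.10, -0.13 and -0.14 in turn. A pseudocount of 0.1 CPM gave 13.22 for KRT7, and one of 10 CPM gave 6.59 for KRT7 and 5.58 for KRT19. With both levels from CAL51-labelled barcodes, KRT8 was at -0.45, KRT18 at -0.051 and KRT19 at 6.35, and KRT18 was no longer 2-fold different. The cause was not tested.

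Shares of barcodes with a UMI follow the depth by construction. At 1000 UMIs they were 65.7%, 48.8%, 42.98% and 78.1% for KRT7, KRT8, KRT18 and KRT19 in MDAMB468, at 5000 UMIs 97.6%, 94.2%, 88.5% and 99.0%, and without thinning 99.2%, 93.8%, 95.04% and 98.8%. In CAL51 they were 47.3%, 62.4% and 2.09% for KRT8, KRT18 and KRT19 at 1000 UMIs, 87.2%, 95.2% and 8.79% at 5000 UMIs, and 90.2%, 95.967% and 12.8% without thinning. With shared barcodes kept, KRT7 was seen in 1.97% and KRT19 in 7.74% of CAL51 barcodes. Fano factors at 1000 UMIs were 1.09 for KRT7 and 1.32 for KRT19 in MDAMB468, and 1.80, 2.34 and 0.98 for KRT8, KRT18 and KRT19 in CAL51. At 5000 UMIs they were 2.33 for KRT19 in MDAMB468, and 4.84, 7.51 and 2.41 in CAL51. With shared barcodes kept, that of KRT19 in CAL51 was 5.55. The correlation of KRT8 and KRT18 in CAL51 was 0.424 at 1000 UMIs, 0.691 at 5000, 0.731 without thinning, 0.965 with noise removed, 0.663 within G1, and 0.549, 0.637, 0.495 and 0.626 within clusters 0, 1, 2 and 4. In MDAMB468 it was -0.016 at 1000 UMIs, 0.408 without thinning, 0.643 with noise removed, -0.130 within G1 (40 barcodes) and 0.293 within cluster 0, so its sign is not fixed at low counts. At Leiden resolution 1.0 the highest over the lowest cluster mean was 2.81 and 1.99 for KRT8 and KRT18 in MDAMB468 and 2.20 and 2.74 in CAL51, against 1.33, 1.14, 1.65 and 1.79 as reported.

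With a minimum of 1 UMI, 10 type II keratins, 11 type I keratins, 2 other intermediate filaments and 21 pseudogenes were at least 2-fold higher in MDAMB468, and 3 type I keratins, 2 desmosome genes and 39 pseudogenes were lower. With a minimum of 100 UMIs, 3 type II keratins were higher, and 0 other intermediate filaments and 0 pseudogenes were higher, with 0 pseudogenes lower. Fewer or more genes tested explain these counts by construction. No paired analysis was possible because each line had 1 library, and no replicate could be left out. Depth limits KRT19 in CAL51, mostly 0 or 1 UMI per barcode, and KRT18 in MDAMB468, with a median of 1 UMI at equal depth.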
